A study of Homo sapiens with 6 samples.

Results

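The clustered protocadherins are cell-surface cadherins encoded by tandem gene arrays, alpha, beta and gamma, on human chromosome 5. The members described here are the protein-coding genes of those arrays, taken by symbol (PCDHA with a number or C, PCDHB with a number, and PCDHGA, PCDHGB or PCDHGC in GENCODE release 29). The rule itself uses no measured values, but it was chosen with earlier results of these data known. The rule found 53 of the 60554 gene identifiers counted, or 53 of 19664 protein-coding genes. The alpha cluster held 15 of them, the beta cluster 16 and the gamma cluster 22. All lay on the plus strand between chr5:140786136-141512981 (GRCh38), a span of 727 kb.

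RNA was sequenced from Daoy cells, an established line from a human cerebellar medulloblastoma, in 6 libraries. In 3 libraries (WT) the cells overexpressed wild-type ZBTB7B, a zinc-finger transcription factor of the BTB family, and in 3 libraries (ZFmut) they overexpressed ZBTB7B with the substitution R363L in its zinc-finger domain. Both constructs were delivered by lentivirus, at an MOI (multiplicity of infection) of 15 and for 72 hr, during 4 days of culture in complete DMEM with 10% FBS. Every library thus came from cells that carried a ZBTB7B transgene, none came from cells without it, and all are from this 1 line; the promoter of the transgene is not given in the labels. Whether the replicates were grown separately is not stated in the labels, so the spread behind each p-value could be technical.

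Gene counts per library ranged from 22236214 to 102730428, and the members took 5224 to 24037 of them. ZBTB7B reads, which do not separate the transgene from the cells' own gene or one allele from the other, came to 899, 863 and 951 CPM (reads relative to library size after TMM scaling) with WT and 555, 547 and 627 CPM with ZFmut; values are given throughout in the order of replicates 1 to 3. The WT libraries were higher without overlap, so the groups differ in the amount of ZBTB7B RNA as well as in the allele, and the share of each in what follows cannot be told apart. Of 18683 genes that passed the low-count filter, 35.6% differed between the groups at an adjusted p under 0.05 in edgeR's quasi-likelihood test with Benjamini-Hochberg adjustment. This comprised 18.4% higher with WT and 17.2% lower with WT. All differences are WT minus ZFmut, with n = 3 libraries in each group.

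Clustered protocadherins bind the identical isoform on an opposing cell, and neurons use the combination of isoforms on their surface to tell their own branches from those of other cells. In the alpha and gamma clusters each variable exon has its own promoter and is spliced to constant exons shared by the cluster, whereas beta genes consist of a single coding exon. Promoter choice among the alternate exons is stochastic in many neurons, involves loops held by CTCF and cohesin, and is restrained by DNA methylation and SMCHD1; the C-type genes at the ends of the alpha and gamma clusters are under separate control and are often expressed constitutively. Loss or gain of methylation over these clusters is common in tumours and in cultured cells.

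The shared exons bear on every value below. Reads that lie in the constant exons fit several genes at once and are not counted. An alpha or gamma value thus rests on the gene's own exon sequence, which is not the variable exon alone in every member. This countable sequence was 10574 bases long in PCDHA4 and 9555 in PCDHA10, against 2331 in PCDHA1, and CPM values do not correct for that. The exon sequence that no other annotated gene overlaps made up 36.9 to 78.7% of the exons of an alpha gene, at least 75.1% of a beta gene and 35.6 to 72.4% of a gamma gene. Members also resemble each other within that unshared exon sequence, from which the constant exons are left out: the share of its 50-base windows that also occur in transcripts of another gene reached 45.1% in PCDHB8, and was over 20% in 9 members (PCDHA6, PCDHA7, PCDHA8, PCDHB2, PCDHB8, PCDHB9, PCDHB10, PCDHB13 and PCDHGB4). Reads from such stretches may be discarded or assigned to a relative, which makes single values for those 9 less certain.

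Most members were expressed at low levels. The mean level was under 1 CPM in 13 of the 53 members, and the median member stood at 2.57 CPM, against 14.0 CPM for the median tested gene, without regard to length. Per kilobase of countable exon, PCDHGC3 was highest at 14.6 CPM per kb, followed by PCDHB5 at 12.1, PCDHGA11 at 5.27, PCDHB2 at 4.58 and PCDHB8 at 3.07 CPM per kb. The lowest were PCDHB1, PCDHA13 and PCDHGA12, at 0.0292, 0.0368 and 0.0444 CPM per kb. These 3 did not pass the low-count filter. PCDHB1 had 12, 5 and 5 reads with WT and 8, 5 and 19 with ZFmut. PCDHA13 had 4, 2 and 3 reads with WT and 3, 1 and 1 with ZFmut, and PCDHGA12 had 2, 9 and 4 with WT and 4, 1 and 13 with ZFmut. The 4 highest members of each cluster by CPM took most of its reads: 65.3% of the alpha, 70.0% of the beta and 69.7% of the gamma CPM with WT, and 69.5, 68.9 and 72.1% with ZFmut.

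More members were higher than lower with WT. Of the 50 tested members, 22 were called higher, against the 18.4% of all tested genes given above, 2 were called lower, against 17.2%, and 26 were not called. The median log2 difference over the tested members was 0.33, against 0.004 over all tested genes, and 43 of the 50 were above 0. Values of the WT libraries lay above those of the ZFmut libraries without overlap in 26 tested members, where 24.4% of all tested genes did so. ZFmut values lay above in 2 members, against 22.8% of tested genes, and the groups overlapped in 22. RNA was measured in bulk, so fewer cells that use a promoter and less RNA from it per cell cannot be told apart. The calls fell as follows: 5 higher and 2 lower of 14 tested alpha members (median 0.26), 10 higher and 0 lower of 15 tested beta members (median 0.45), and 7 higher and 0 lower of 21 tested gamma members (median 0.32).

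**Figure D1:**
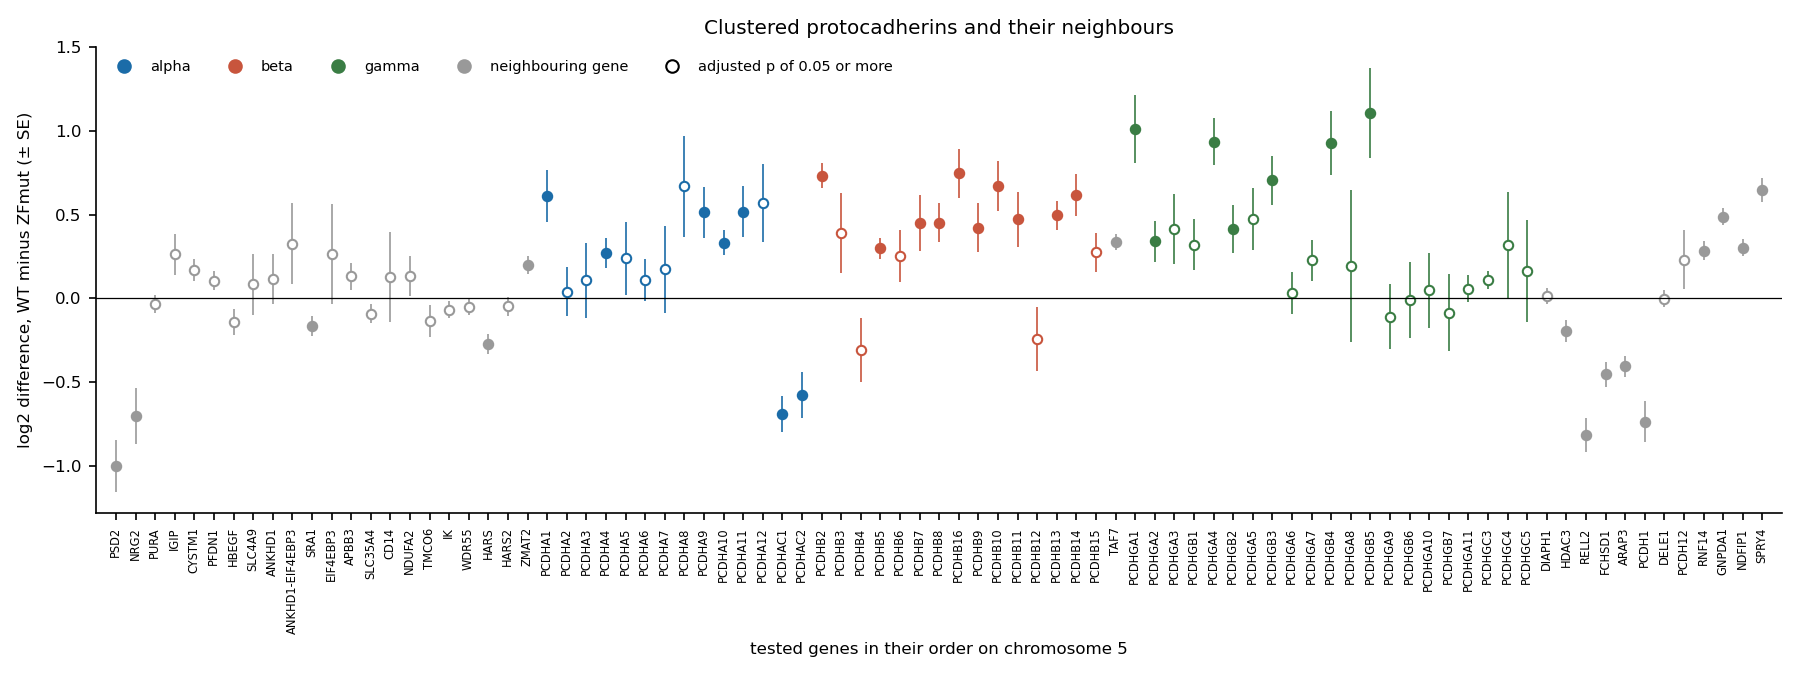
Log2 difference (WT minus ZFmut, ± SE of the edgeR fit) of each tested clustered protocadherin and of the tested protein-coding genes within 1 Mb of them, in their order on chromosome 5; filled points have an adjusted p under 0.05. Filled members lie above 0 in all 3 clusters, except PCDHAC1 and PCDHAC2 at the end of the alpha cluster, which lie below it.

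The plot in chromosome order shows where the called members sit. No member between PCDHA1 and PCDHA12 was called lower, and the 2 members called lower, PCDHAC1 and PCDHAC2, are neighbours at the downstream end of the alpha cluster. In the gamma cluster the 7 called members all lay in the upstream stretch from PCDHGA1 to PCDHGB5, where 7 of 13 tested were higher (median 0.42), and 0 of 8 tested were called from PCDHGA9 to PCDHGC5 (median 0.05). Over all tested genes, 18.4% were higher and 17.2% lower, so few calls would be due among 8 genes. That division was drawn after the values were seen, and the difference between the stretches was not tested.

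Promoter sequences are shown because each alternate exon is transcribed from its own promoter, and because members of all 3 clusters were called in the same direction. RefSeq (GRCh38.p14) held a window of 250 bases before to 50 after the start for 47 of the 53 members, not for PCDHA3, PCDHA13, PCDHB6, PCDHB11, PCDHGA12 and PCDHGC5. Clustered protocadherin promoters are known for a conserved element around the letters CGCT, next to the start. The stretches below give 12 bases on each side of it, 5′ to 3′ on the plus strand, with the 6-letter core in capitals: GTCGCT in alpha, GGCGCT in beta, and GCCGCT or GTCGCT in gamma. They are chosen from members called higher in each cluster, PCDHAC1 as called lower, and PCDHGA11 and PCDHGC3 as highly expressed members that were not called.
PCDHA1: tggccacatgatGTCGCTgtacaccacaaa
PCDHA4: gagccacatgatGTCGCTctttaccacaaa
PCDHA10: aagccaccggatGTCGCTgtcgtccacaaa
PCDHA11: taggcgcaaggtGTCGCTctttacttggtg
PCDHAC1: ctagaaggtgtgGTCGCTcacgttcaccgt
PCDHB2: gagacgcggggtGGCGCTgcagccttagaa
PCDHB5: aggacgcctggtGGCGCTgcaggctaagag
PCDHB13: aggacgcgtggtGGCGCTgcaggataagaa
PCDHB16: agaacgcgtggtGGCGCTgcaggttaagat
PCDHGA1: aggactgtgggcGCCGCTgttcactaatct
PCDHGA4: aagactctgggtGTCGCTgttcaccaatca
PCDHGB4: ctgactctgggcGCCGCTgttggccaaagt
PCDHGB5: ctgactctgggcGCCGCTgttggccaaagt
PCDHGA11: tgggctctaggcGCCGCTgctcaccaatca
PCDHGC3: gggactctgtgtGCCGCTgtcggccaatga

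The letters of PCDHGB4 and PCDHGB5 are identical over the stretch shown. Motifs were searched on both strands, their letters were picked after the sequences were seen, and the shorter ones lie within the longer ones. ATGTCGCT was found in 9 of 11 alpha windows other than C-type, and in 0.28% of the 27305 genes of the table. GGTGGCGCT was found in 13 of 14 beta windows, and in 0.62% of all genes. GNCGCTGTT, where N is any base, was found in 13 of 18 gamma windows other than C-type, and in 1.02% of all genes. The shorter GNCGCT, present in 47.99% of all genes, was in 20 of 21 matched members called higher and in 22 of 23 matched members not called. As GNCGCT was in 45 of all 47 matched members, it could not separate members called higher from those not called. Of the longer motifs, GGTGGCGCT was in 9 of 21 members called higher and 4 of 23 not called. ATGTCGCT was in 3 and 6 of them, and GNCGCTGTT in 6 and 8. These longer motifs follow the clusters, and whether they go with the calls was not tested. Where a core was present in members other than C-type (40 of 43 windows), it began a median of 58.5 bases before the RefSeq start. No core of the cluster's own kind was found in these windows of PCDHA9, PCDHAC2, PCDHB1 and PCDHGB7.

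The C-type promoters differ from those of the other members in base composition. GC content of the 300-base windows was 59.0 to 66.0% in the 4 matched C-type members, with 15 to 27 CpG dinucleotides each. It was 32.3 to 51.3% in the 43 matched other members, with 2 to 16 CpG and a median of 7. The ranges do not overlap for GC content, and those for CpG count overlap at 15 and 16. Over all RefSeq windows the medians were 58.7% GC and 14 CpG, near the low end of the C-type range. Of the matched C-type members, PCDHAC1 and PCDHAC2 were called lower, and PCDHGC3 and PCDHGC4 were not called. The 250 bases before the start are printed for PCDHB2 and PCDHGA4, called higher, and for PCDHAC1 and PCDHAC2, called lower, with the core in capitals where there is one; they lie at chr5:141094365-141094614, chr5:141354771-141355020, chr5:140926049-140926298 and chr5:140966226-140966475, all on the plus strand.
PCDHB2: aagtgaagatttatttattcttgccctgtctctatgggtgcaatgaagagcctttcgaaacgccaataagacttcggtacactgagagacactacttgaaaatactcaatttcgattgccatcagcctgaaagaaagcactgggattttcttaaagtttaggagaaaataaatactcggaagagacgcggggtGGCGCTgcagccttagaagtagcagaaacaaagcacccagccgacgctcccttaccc
PCDHGA4: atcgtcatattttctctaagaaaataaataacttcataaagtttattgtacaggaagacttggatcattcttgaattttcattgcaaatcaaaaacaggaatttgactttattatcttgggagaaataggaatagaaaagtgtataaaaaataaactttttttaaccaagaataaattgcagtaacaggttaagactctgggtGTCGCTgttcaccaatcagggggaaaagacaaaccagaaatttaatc
PCDHAC1: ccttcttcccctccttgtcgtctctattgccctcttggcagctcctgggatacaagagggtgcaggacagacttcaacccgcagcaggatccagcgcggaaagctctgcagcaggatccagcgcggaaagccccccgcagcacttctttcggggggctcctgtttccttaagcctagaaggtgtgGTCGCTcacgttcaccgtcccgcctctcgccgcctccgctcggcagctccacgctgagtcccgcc
PCDHAC2: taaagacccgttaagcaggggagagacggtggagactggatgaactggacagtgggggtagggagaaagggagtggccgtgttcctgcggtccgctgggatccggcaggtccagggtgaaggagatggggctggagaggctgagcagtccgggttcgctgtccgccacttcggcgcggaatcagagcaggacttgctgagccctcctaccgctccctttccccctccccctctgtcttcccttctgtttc

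Alpha protocadherins carry the constant intracellular region that binds the WAVE complex, a driver of actin branching, and most of them need a partner isoform to reach the cell surface. PCDHA10 (chr5:140855883-141012344) was the highest alpha member, at 20.4, 23.3 and 23.4 CPM with WT and 17.0, 17.4 and 18.6 CPM with ZFmut. All WT values lay above all ZFmut values, a 1.26-fold difference (log2 0.33, SE 0.07, edgeR adjusted p = 0.003), and PCDHA10 alone supplied 37.6% of the alpha CPM with WT and 33.5% with ZFmut. After correcting for GC and exon length the PCDHA10 difference was 0.17 (adjusted p = 0.0719), no longer called. PCDHA4, second in alpha reads, has a long countable sequence and was at 0.804 CPM per kb, under the 1.16 of PCDHA1. PCDHA4 stood at 9.53, 8.71 and 9.78 CPM with WT and 7.94, 7.30 and 7.77 CPM with ZFmut. Those groups did not overlap either, at 1.21-fold (log2 0.27, SE 0.09, edgeR adjusted p = 0.0271). The PCDHA4 call was lost in 8 of 16 alternative settings, with adjusted p up to 0.312. That value came with the GC and length correction, where the log2 difference fell to 0.11. With the replicate number added as a block it was 0.12 (adjusted p = 0.249). The call was also lost without WT replicates 1 or 3 (adjusted p = 0.0792 and 0.114) and without ZFmut replicates 2 or 3 (0.0784 and 0.0794).

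Among the alpha members with fewer reads, PCDHA1 was at 3.005, 2.99 and 3.83 CPM with WT and 2.45, 1.84 and 2.12 CPM with ZFmut. PCDHA1 is the first gene of the cluster and had its largest called difference upward, 1.53-fold (log2 0.61, SE 0.16, edgeR adjusted p = 0.0068), with no overlap. PCDHA11 stood at 3.94, 2.99 and 3.20 against 2.01, 2.42 and 2.42 CPM (1.43-fold, edgeR adjusted p = 0.0143). PCDHA9 stood at 2.38, 2.69 and 2.53 against 1.52, 1.84 and 1.88 CPM (1.43-fold, edgeR adjusted p = 0.0152). Both had WT above ZFmut without overlap. PCDHA11 was no longer called without WT replicate 1 (adjusted p = 0.0717), nor PCDHA9 without WT replicate 2 (0.0709). In the fit without WT replicate 1 the count of alpha members called higher was 3, PCDHA4 being the other member lost. The 7 alpha members not called, PCDHA2, PCDHA3, PCDHA5, PCDHA6, PCDHA7, PCDHA8 and PCDHA12, had log2 differences from 0.04 (PCDHA2) to 0.67 (PCDHA8, SE 0.30, edgeR adjusted p = 0.102, 8 to 35 reads per library). PCDHA12 (log2 0.57) was the only 1 of these 7 whose groups did not overlap.

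The C-type genes of the alpha cluster went the other way. PCDHAC1 (chr5:140926369-141012344) was at 4.52, 4.05 and 4.05 CPM with WT and 6.20, 7.26 and 6.75 CPM with ZFmut. Every ZFmut value exceeded every WT value, 1.61-fold on average (log2 -0.69, SE 0.11, edgeR adjusted p = 0.000193). PCDHAC2 (chr5:140966235-141012344), which is known in mice for the spacing of serotonergic axons, was at 2.62, 3.52 and 2.69 CPM with WT and 4.68, 4.51 and 4.38 CPM with ZFmut. It too was lower with WT without overlap, the ZFmut level being 1.49-fold that of WT (log2 -0.58, SE 0.14, edgeR adjusted p = 0.00425). These calls held in all 16 alternative settings, with adjusted p up to 0.0026 for PCDHAC1 and 0.0229 for PCDHAC2. As a share of the alpha CPM, the C-type pair made up 12.3, 12.8 and 11.1% with WT but 21.2, 22.4 and 20.5% with ZFmut. The make-up of the alpha transcripts thus differed between the groups while their sum differed by 1.13-fold, a log2 ratio of 0.17 that was 0.098 with the GC and length correction. Outside the shared constant exons, no 50-base window of PCDHAC1 or PCDHAC2 occurs in another gene's transcripts.

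**Figure D2:**
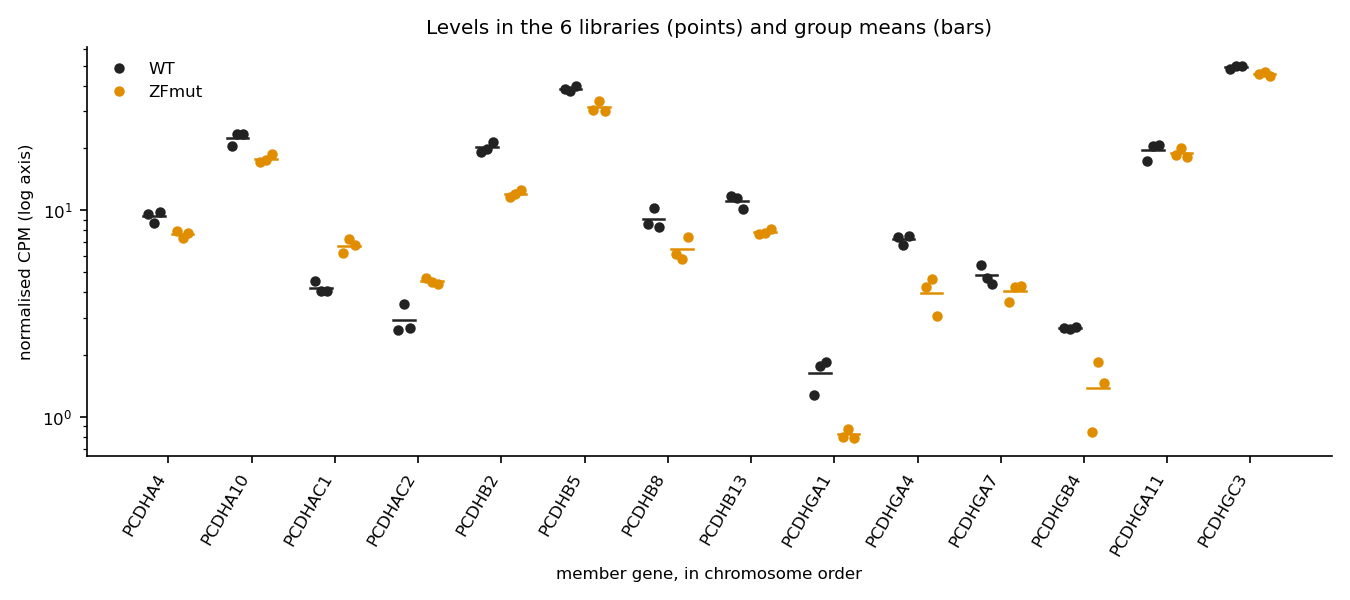
Normalised CPM (log axis) of 14 members in the 3 WT (black) and 3 ZFmut (orange) libraries; each point is a library and each bar a group mean. WT points lie above ZFmut points for PCDHB2, PCDHGA1, PCDHGA4 and PCDHGB4, lie below them for PCDHAC1 and PCDHAC2, and mix with them for PCDHGA11.

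The beta genes lack the constant region and are found in mixed surface complexes with alpha and gamma isoforms. In the plot of levels by library, PCDHB2 (chr5:141094578-141098703) shows the clearest separation of the beta members, at 19.2, 19.7 and 21.4 CPM with WT and 11.6, 12.0 and 12.5 CPM with ZFmut. That was 1.66-fold (log2 0.73, SE 0.07, edgeR adjusted p = 3.41e-06), with the smallest p of all members. PCDHB5 (chr5:141135218-141138625), the most abundant beta transcript, was at 38.6, 37.7 and 39.8 CPM with WT and 30.5, 33.8 and 30.3 CPM with ZFmut. Its groups did not overlap, but the difference was smaller, 1.23-fold (log2 0.30, SE 0.06, edgeR adjusted p = 0.00207). PCDHB5 made up 34.3% of beta CPM with WT and 37.6% with ZFmut, and PCDHB2 17.8 and 14.3%. PCDHB13 stood at 11.7, 11.5 and 10.1 against 7.67, 7.72 and 8.09 CPM, 1.41-fold without overlap (edgeR adjusted p = 0.000533).

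PCDHB16 was at 3.32, 3.59 and 3.96 CPM with WT and 2.36, 1.71 and 2.28 CPM with ZFmut, the largest fitted beta difference (1.68-fold, log2 0.75, SE 0.15, edgeR adjusted p = 0.00122). PCDHB10, at 3.59, 2.87 and 3.01 against 2.19, 1.88 and 1.89 CPM, was 1.59-fold higher with WT (edgeR adjusted p = 0.00274). PCDHB14, at 4.66, 5.23 and 5.19 against 3.03, 2.92 and 3.602 CPM, was 1.53-fold higher (edgeR adjusted p = 0.00134). None of these 3 pairs of groups overlapped, and the calls of PCDHB2, PCDHB5, PCDHB10, PCDHB13, PCDHB14 and PCDHB16 held in all 16 alternatives. PCDHB8, at 8.60, 10.2 and 8.26 against 6.11, 5.80 and 7.45 CPM, was 1.37-fold higher without overlap (edgeR adjusted p = 0.00713). Its unshared exon sequence has the largest share of windows in common with other genes, and without WT replicate 2 it missed the threshold (adjusted p = 0.0512).

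PCDHB7, PCDHB9 and PCDHB11 stood close to the threshold. PCDHB7 was at 3.59, 2.97 and 3.45 CPM with WT and 1.96, 3.17 and 2.26 CPM with ZFmut, with ZFmut replicate 2 above WT replicate 2, so these groups overlapped (log2 0.45, SE 0.17, edgeR adjusted p = 0.0476). PCDHB9 was at 3.25, 3.64 and 3.92 against 3.21, 2.17 and 2.71 CPM (log2 0.42, SE 0.15, edgeR adjusted p = 0.0382), its highest ZFmut value just under its lowest WT value. PCDHB11 was at 2.21, 2.29 and 2.98 against 2.01, 1.67 and 1.74 CPM, also without overlap (log2 0.47, SE 0.16, edgeR adjusted p = 0.0371). All 3 were lost without WT replicate 3 (adjusted p = 0.127, 0.134 and 0.189) and without ZFmut replicate 3 (0.236, 0.118 and 0.158). PCDHB7 was also lost without WT replicate 1 (0.124) and without ZFmut replicate 1 (0.11), PCDHB9 without WT replicate 2 (0.0923), and PCDHB9 and PCDHB11 without ZFmut replicate 2 (0.11 and 0.086). With DESeq2 the adjusted p was 0.074 for PCDHB7, 0.0651 for PCDHB9 and 0.0852 for PCDHB11.

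The 5 tested beta members not called were PCDHB3, PCDHB4, PCDHB6, PCDHB12 and PCDHB15. PCDHB15 (log2 0.27, edgeR adjusted p = 0.0762) and PCDHB3 (log2 0.39, edgeR adjusted p = 0.226) had WT values above ZFmut values without overlap. PCDHB4 and PCDHB12 had fitted differences below 0, at -0.31 (SE 0.19) and -0.24 (SE 0.19), each with overlapping groups. The pseudogenes that lie among the beta genes were read too: PCDHB17P, PCDHB18P and PCDHB19P had log2 differences of -0.02, 0.38 and 0.43, and none was called (edgeR adjusted p = 0.932, 0.164 and 0.3).

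Gamma protocadherins are needed for the survival of many spinal and cortical interneurons and for the self-avoidance of dendrites, and their A and B genes alternate along the cluster. PCDHGA4 (chr5:141355025-141512979) was the most abundant gamma member called, at 7.43, 6.76 and 7.47 CPM with WT and 4.24, 4.63 and 3.06 CPM with ZFmut. WT lay above ZFmut without overlap, 1.91-fold (log2 0.94, SE 0.14, edgeR adjusted p = 0.000142). PCDHGB5 had the largest fitted difference of all members, at 0.932, 0.950 and 1.01 CPM with WT and 0.625, 0.542 and 0.353 CPM with ZFmut, or 27, 54 and 32 against 14, 13 and 36 reads. Its groups did not overlap (2.15-fold, log2 1.11, SE 0.27, edgeR adjusted p = 0.00512), but the call was lost without ZFmut replicate 3, the deepest library (log2 0.72, adjusted p = 0.0985). PCDHGA1, the first gene of the cluster, was at 1.28, 1.76 and 1.84 CPM with WT and 0.803, 0.876 and 0.795 CPM with ZFmut. It was 2.02-fold higher without overlap (log2 1.01, SE 0.20, edgeR adjusted p = 0.00133).

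Called B genes were found at the same end of the cluster. PCDHGB4 was at 2.69, 2.66 and 2.72 CPM with WT, a narrow range, and at 0.848, 1.84 and 1.46 CPM with ZFmut. The groups did not overlap (1.90-fold, log2 0.93, SE 0.19, edgeR adjusted p = 0.00168). PCDHGB3 stood at 2.69, 2.67 and 3.01 against 1.52, 1.79 and 1.75 CPM, 1.63-fold higher without overlap (edgeR adjusted p = 0.00179). The calls of PCDHGA1, PCDHGA4, PCDHGB3 and PCDHGB4 held in every alternative run. PCDHGA2 and PCDHGB2 were nearer the threshold. PCDHGA2 was at 4.39, 5.30 and 4.72 against 3.44, 3.80 and 4.04 CPM, without overlap (log2 0.34, edgeR adjusted p = 0.0403). PCDHGB2 was at 4.11, 4.93 and 6.11 against 3.35, 4.21 and 3.78 CPM, with ZFmut replicate 2 above WT replicate 1 (log2 0.42, edgeR adjusted p = 0.036).

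PCDHGA2 lost its call when any library other than WT replicate 1 was left out. The adjusted p was 0.199 without WT replicate 2, 0.0767 without WT replicate 3, and 0.0952, 0.0836 and 0.0573 without ZFmut replicates 1, 2 and 3. PCDHGB2 lost its call without WT replicates 2 or 3 (adjusted p = 0.0645 and 0.192) and without ZFmut replicates 1 or 3 (0.0788 and 0.123). Without ZFmut replicate 3 the number of gamma members called higher was 4, in place of 7.

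The most abundant gamma transcripts were among those not called. PCDHGC3 (chr5:141475947-141512979), a C-type gene reported to bind AXIN1 in the Wnt pathway, was at 47.9, 49.6 and 49.98 CPM with WT and 45.7, 46.5 and 44.6 CPM with ZFmut. The WT values lay above the ZFmut values without overlap, but the difference was 1.08-fold (log2 0.11, SE 0.05, edgeR adjusted p = 0.126). PCDHGC3 was called higher with the replicate number as a block (adjusted p = 0.0393) and with the GC and length correction (log2 0.19, adjusted p = 0.00182). PCDHGA11 was at 17.3, 20.4 and 20.8 CPM with WT and 18.4, 20.03 and 18.1 CPM with ZFmut, with overlapping groups (log2 0.06, SE 0.08, edgeR adjusted p = 0.62). PCDHGA7 was at 5.42, 4.70 and 4.40 against 3.61, 4.26 and 4.31 CPM (log2 0.23, edgeR adjusted p = 0.169), without overlap. PCDHGC3 made up 42.5% and PCDHGA11 16.8% of the gamma CPM with WT, and 45.4 and 18.7% with ZFmut.

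The other C-type gamma genes were scarce. PCDHGC4, which mouse interneurons require for survival, gave 13, 25 and 13 reads with WT and 10, 5 and 37 with ZFmut, or 0.449, 0.440 and 0.411 against 0.446, 0.209 and 0.363 CPM. PCDHGC5 gave 17, 37 and 16 and 16, 17 and 40 reads, or 0.587, 0.651 and 0.506 against 0.714, 0.709 and 0.393 CPM. Both pairs of groups overlapped, and at this depth no difference was detectable (log2 0.32, SE 0.32, and 0.16, SE 0.31; edgeR adjusted p = 0.471 and 0.718). The fitted PCDHGC5 difference was -0.27 without ZFmut replicate 3. The other 9 tested gamma members not called (PCDHGA3, PCDHGA5, PCDHGA6, PCDHGA8, PCDHGA9, PCDHGA10, PCDHGB1, PCDHGB6 and PCDHGB7) ranged from -0.11 (PCDHGA9) to 0.48 (PCDHGA5, edgeR adjusted p = 0.059, groups apart). PCDHGA8, at 10 to 22 reads per library, had a fitted difference above 0 (log2 0.19, SE 0.45) but a lower mean CPM with WT (0.445) than with ZFmut (0.494), and no direction is read from it.

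Summed levels show the same pattern by class. Beta members added up to 111, 113 and 115 CPM with WT and 82.6, 84.8 and 84.3 CPM with ZFmut, or 113 ± 2.32 against 83.9 ± 1.17 (mean ± SD, n = 3), a ratio of 1.34. Alpha members other than C-type came to 52.3 ± 1.54 against 41.4 ± 1.44 CPM and gamma members other than C-type to 65.6 ± 3.85 against 53.9 ± 3.10 CPM, ratios of 1.26 and 1.22. None of these 3 pairs of groups overlapped, as was also so for 47.2% of tested genes taken singly. The alpha C-type pair came to 7.15 ± 0.412 against 11.3 ± 0.453 CPM (ratio 0.635), and the 3 gamma C-type members to 50.2 ± 1.11 against 46.5 ± 1.07 CPM (ratio 1.08), again without overlap in either case. Nearly all of the gamma C-type sum was PCDHGC3, at means of 49.2 CPM with WT and 45.6 CPM with ZFmut, which was not called. Over all members the sum was 288 ± 8.09 against 237 ± 4.66 CPM, a ratio of 1.22. Of the 45 tested members other than C-type, 22 were called higher and 0 lower. Of the 5 C-type members, 0 were called higher and 2 lower. By gamma subfamily, 3 of 11 tested PCDHGA and 4 of 7 PCDHGB members were called higher. Over all tested genes, 18.4% were called higher and 17.2% lower. No test was made between classes.

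**Figure D3:**
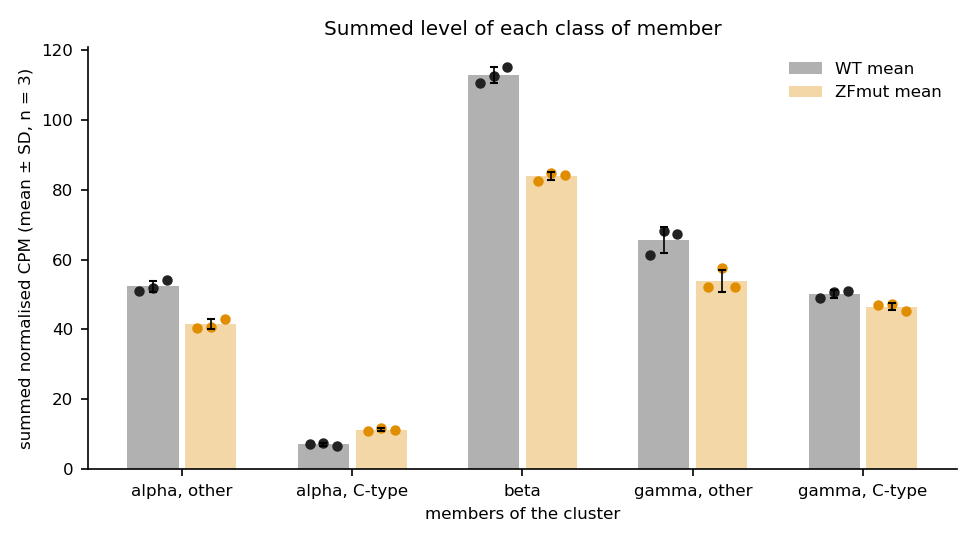
Summed normalised CPM of the members of each class; bars are group means with SD (n = 3), points are the libraries. WT bars are higher than ZFmut bars for the alpha, beta and gamma members other than C-type, at 1.26, 1.34 and 1.22 times the ZFmut mean, and lower for the alpha C-type pair.

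Calls were fewer among members with few reads. Of the 40 tested members at a mean of 1 CPM or more, 21 were called higher and 2 lower (median log2 0.34). Of the 10 tested members under 1 CPM, PCDHGB5 was the only 1 called (median log2 0.26). SEs ranged from 0.05 for PCDHGC3 to 0.45 for PCDHGA8. In the 9 members with over 20% of the windows of their unshared exon sequence found in another gene, 6 were called higher (median 0.50), against 16 of the other 41 tested (median 0.30). Members with little resemblance to others were therefore among those called, such as PCDHGB3 with 0.0% and PCDHGA4 with 1.51% of these windows shared. By GC content of the exons, 5 of 8 members under 45%, 9 of 20 at 45 to 50% and 8 of 22 at 50 to 58% were called higher. The median log2 differences of these classes were 0.30, 0.32 and 0.37, so the size of the difference did not fall with the calls. For all counts in this paragraph, the shares over all tested genes were 18.4% higher and 17.2% lower.

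**Figure D4:**
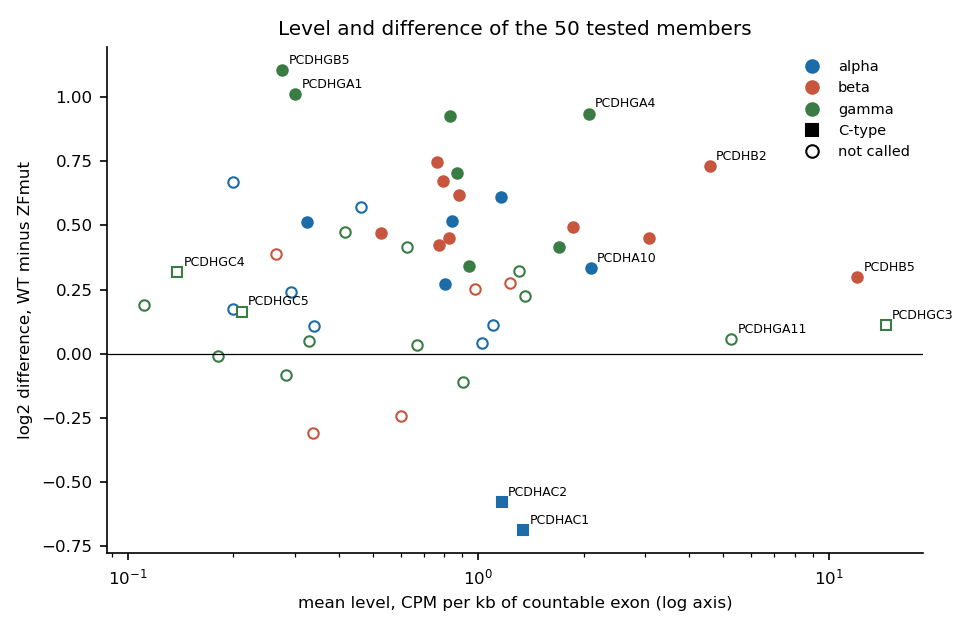
Log2 difference (WT minus ZFmut) of the 50 tested members against their mean level in CPM per kb of countable exon (log axis); filled symbols have an adjusted p under 0.05 and squares are C-type genes. The members at the right, PCDHGC3, PCDHB5 and PCDHGA11, have differences of 0.11, 0.30 and 0.06, smaller than the 0.73 of PCDHB2 and the 0.94 of PCDHGA4.

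Genes around the clusters were called in both directions. Of 38 other protein-coding genes between the members or within 1 Mb of them, 35 were tested, 6 were called higher, 9 lower and 20 not (median log2 0.01), where 18.4% of all tested genes were higher and 17.2% lower. TAF7, a subunit of the TFIID complex whose gene lies between the beta and gamma clusters, was at 114, 111 and 108 CPM with WT and 85.7, 89.7 and 88.3 CPM with ZFmut, 1.26-fold higher without overlap (edgeR adjusted p = 9.79e-05). Downstream of the gamma cluster, 4 of 12 tested neighbours were higher and 5 lower. SPRY4, an inhibitor of growth factor signalling, was at 29.4, 30.3 and 31.1 against 20.3, 17.5 and 20.02 CPM, and GNPDA1, an enzyme of glucosamine metabolism, at 132, 126 and 130.4 against 92.8, 95.6 and 89.2 CPM, 1.57-fold and 1.40-fold higher (edgeR adjusted p = 6.91e-06 and 4.04e-06). RELL2 and ARAP3, in the same stretch, were lower with WT (log2 -0.82 and -0.41, edgeR adjusted p = 2.57e-05 and 0.000141). Neither RELL2, at 5.49, 6.35 and 6.36 against 9.33, 11.3 and 11.3 CPM, nor ARAP3, at 57.5, 63.1 and 62.7 against 74.1, 84.7 and 83.8 CPM, had overlapping groups. Upstream of the alpha cluster, 1 of 22 tested neighbours was higher and 4 were lower.

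Factors that act on protocadherin promoters were tested as a list of 32 genes for chromatin architecture, DNA methylation and silencing. Of 31 tested, 9 were higher and 6 lower (median log2 0.11), where 18.4% of all tested genes were higher and 17.2% lower. The DNA methyltransferases DNMT1, DNMT3A and DNMT3B were all lower with WT. DNMT3B, which places methyl groups de novo, was at 24.0, 26.2 and 24.5 against 31.7, 32.9 and 30.3 CPM (log2 -0.33, SE 0.07, edgeR adjusted p = 0.00109). DNMT1, the maintenance enzyme, was at 662, 685 and 682 against 757, 836 and 795 CPM (log2 -0.24, edgeR adjusted p = 0.00223), without overlap, as for DNMT3B. TRIM28, the corepressor of KRAB zinc-finger proteins, was at 1246, 1469.6 and 1403 against 1573, 1872 and 1777 CPM (log2 -0.34, edgeR adjusted p = 0.00136). ATF7IP, a partner of SETDB1, and RCOR1, a partner of REST, were higher without overlap, at 66.9, 62.3 and 61.6 against 51.4, 47.6 and 48.1 CPM and 94.4, 86.3 and 92.8 against 75.1, 71.5 and 70.5 CPM (log2 0.38 and 0.33, edgeR adjusted p = 0.000129 and 0.000225).

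CTCF and cohesin, which loop these promoters to their enhancers, had small differences. Of 5 cohesin genes tested, RAD21 and SMC3 were called higher and 0 were called lower. The shares over all tested genes were 18.4% higher and 17.2% lower. SMC3 was at 145.5, 134.7 and 135.7 against 128.2, 116.2 and 118.6 CPM, without overlap (log2 0.20, SE 0.06, edgeR adjusted p = 0.0128). CTCF was at 116, 107 and 109 CPM with WT and 100.3, 97.0 and 98.1 CPM with ZFmut (log2 0.17, SE 0.05, edgeR adjusted p = 0.0198), without overlap. The cohesin subunit RAD21 was at 244, 225 and 233 against 226, 200.1 and 200.2 CPM, with overlap (log2 0.17, SE 0.06, edgeR adjusted p = 0.041). Neither the CTCF nor the RAD21 call was stable: leaving out WT replicate 1, WT replicate 3, ZFmut replicate 2 or ZFmut replicate 3 gave adjusted p values of 0.127, 0.0719, 0.0548 and 0.0765 for CTCF, and 0.18, 0.108, 0.122 and 0.159 for RAD21. With the GC and length correction the adjusted p was 0.0671 for CTCF and 0.852 for RAD21. SMCHD1, which represses the clusters, was at 61.9, 57.4 and 62.2 against 59.9, 52.9 and 52.8 CPM and not called (log2 0.13, edgeR adjusted p = 0.108). SMCHD1 changed sign with the GC and length correction (-0.06), was called higher without ZFmut replicate 1 (adjusted p = 0.0161) and with replicate number as a block (log2 0.14, adjusted p = 0.00854), and had overlapping groups. On the list as a whole, 14 were higher without ZFmut replicate 1 and 5 without ZFmut replicate 3, where 19.6 and 13.2% of all tested genes were higher.

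Proteins that bind, cleave or act downstream of the protocadherins made a list of 31 genes, all tested. Of these, 13 were higher and 2 lower with WT (median log2 0.12), again against 18.4% higher and 17.2% lower of all tested genes. In the WAVE complex, 5 of 9 genes were higher and 1 was lower. CYFIP1 was at 219, 217 and 219.8 against 164, 182 and 166 CPM and its paralog CYFIP2 at 19.8, 20.01 and 19.8 against 24.9, 30.2 and 28.8 CPM, so that these paralogs moved in opposite directions (log2 0.36 and -0.50, edgeR adjusted p = 0.000148 and 0.000129). PAK1, a kinase downstream of RAC1, was at 42.3, 40.7 and 42.2 against 31.2, 31.0 and 30.3 CPM, and MARCKS, a membrane-bound actin regulator linked to gamma protocadherin signalling, at 724, 772 and 766 against 557, 625 and 619 CPM. Both were higher without overlap (log2 0.44 and 0.33, edgeR adjusted p = 3.93e-05 and 0.000333).

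Genes used as markers of cell types were summed in each library to see whether they moved with the members. All libraries came from 1 cell line, so the sums describe RNA of Daoy cells. Granule neuron lineage markers (9 genes) summed to 113 to 131 CPM with WT and 119 to 133 CPM with ZFmut, with overlap. ATOH1, MYCN, NEUROD1 and BARHL1 were each under 1 CPM. ZIC1 (23.2, 23.6 and 26.2 against 25.6, 27.5 and 26.0 CPM) and ZIC2 (24.9, 28.5 and 27.6 against 22.2, 23.0 and 26.7 CPM) were expressed. So were GLI2 and PAX6, at means of 46.6 and 18.3 CPM. Of 5 tested, 1 was called higher and 0 lower. It was GLI1, at 10.2, 10.3 and 11.6 against 8.08, 8.39 and 8.74 CPM, without overlap (log2 0.34, edgeR adjusted p = 0.00734). For this and the next lists, the shares over all tested genes were 18.4% higher and 17.2% lower. Neuron markers (10 genes) summed to 34.9 to 38.8 against 25.6 to 29.5 CPM, without overlap, with MAP2 at 13.4, 13.9 and 13.3 against 4.997, 5.51 and 5.77 CPM and DCX at 0 reads in all 6 libraries. Of the 8 neuron markers tested, 2 were called higher and 2 lower, with a median log2 of -0.0015. MAP2 and SYT1 were higher (log2 1.2969 and 0.5556), and SNAP25 and ELAVL4 were lower (log2 -0.9845 and -0.6603). The higher sum with WT therefore does not stand for the list as a whole. Glial markers (8 genes) summed to 10.3 to 11.4 and 9.73 to 11.0 CPM, with overlap, with SOX10 at 0 reads, 2 higher and 2 lower of 6 tested. The sum hides differences in both directions: log2 values of the 6 ranged from -0.80 to 4.05, and the groups overlapped in 2. Immune markers (6 genes) summed to 4.56 to 4.93 and 4.82 to 5.22 CPM, with overlap and nearly all from CSF1R. Mesenchymal markers (7 genes) were abundant, at 6386 to 7383 CPM with WT and 7463 to 8034 CPM with ZFmut, without overlap, and 2 were higher and 4 lower of 7. Whether the differences of these marker genes are related to those of the members was not tested.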

How the data were processed

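Reads per gene were counted in 6 libraries of Daoy cells, 3 WT and 3 ZFmut, grouped by the sample titles. The authors deposited raw counts, whole numbers without normalisation, for 60554 Ensembl identifiers; 5 summary lines that name no gene, with 7.71 to 8.08% ambiguous, 5.04 to 6.56% outside genes and 16.1 to 19.4% multiply aligned, were left out. The submitters' processing notes name GRCh38 as the genome, and TopHat2 2.0.9, cutadapt, HTSeq and DESeq2 as tools; for the counting, annotation release and strand setting were not given in the sources used here, and the NEBNext Ultra kit named in the labels does not mark strand, so antisense reads cannot be told apart. Symbols, positions and exons came from GENCODE release 29 (94.1% of identifiers matched) and promoters from RefSeq.

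In R 4.3.3, edgeR 4.0.16 (TMM, filterByExpr, two-sided quasi-likelihood F test, no covariates) was fitted to all genes, with Benjamini-Hochberg adjustment over 18683 tested genes and a threshold of 0.05. The biological coefficient of variation was 6.27%. The fit was tested on simulated data. Alternatives were median-of-ratios and upper quartile scaling, DESeq2 1.42.0, limma-voom (limma 3.58.1), no filter, a filter of 1 CPM in at least 3 libraries, each library left out, the replicate number as a block, loess offsets for GC content and exon length (span 0.5) with and without the block, and thinning to the smallest total. No library pair within a group agreed within sampling noise (chi-square 3.16 to 7.17 per degree of freedom).

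Named with values were all called members, the C-type members, the 4 highest of each cluster, up to 5 called genes with the smallest p from each other list (chromatin regulators, signalling partners, neighbours within 1 Mb), and CTCF, RAD21, SMCHD1 and ZBTB7B; 1 gene that this rule takes is not reported here. Genes named beyond these were chosen after their values were seen. The members and lists were chosen with earlier results of these data known. Marker lists covered granule neuron lineage, neurons, glia, immune and mesenchymal cells.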

Additional observations from a re-analysis of the deposited data

How the results depend on the processing

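Over 16 alternative settings the members called higher numbered 15 (without ZFmut replicate 3) to 23, against 22, and 2 were called lower in each. Of the 24 called members, 13 kept their call in every alternative that tested them: PCDHA1, PCDHAC1, PCDHAC2, PCDHB2, PCDHB5, PCDHB10, PCDHB13, PCDHB14, PCDHB16, PCDHGA1, PCDHGA4, PCDHGB3 and PCDHGB4. DESeq2 called 17 members higher, no filter 19 and thinning to the smallest total 18, where 16.1, 8.17 and 17.2% of all tested genes were higher. Leaving out each library in turn gave 3 to 5 alpha, 7 to 9 beta and 4 to 7 gamma members higher, and 5 to 14 chromatin regulators higher. Over all tested genes, these fits called 13.2% (without ZFmut replicate 3) to 19.6% (without ZFmut replicate 1) higher. The GC and length correction gave 5 chromatin regulators higher and 10 lower, 11 lower with the block added, and moved the log2 ratio of summed CPM to 0.098 from 0.17 for alpha and to 0.39 from 0.43 for beta; the cause was not tested. Signs changed for PCDHGA11 after thinning (-0.0039), PCDHGC5 without ZFmut replicate 3 (-0.27, the other omissions reaching 0.31), and SMCHD1 with the GC and length correction (-0.0591) and with the block added (-0.0593). With replicate number as a block, 23 members and 16 chromatin regulators, SMCHD1 among them, were higher, and no called member was lost. That fit also called more of all tested genes higher, 23.9% against 18.4%. Same-numbered libraries correlated at 0.164, 0.077 and 0.064 in their deviations from the group means, so the numbers were not taken to pair the samples, though each library correlated best with its own number. PCDHA9 missed the threshold in the GC and length correction with replicate block (adjusted p = 0.0511). Depth limits the 10 tested members under 1 CPM most: with 8 to 35 reads per library, PCDHA8 had a log2 SE of 0.30.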

Other observations

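Other genes of proteins that meet the protocadherins in the cell were also higher with WT; they were chosen after their values were seen. PTK2 (focal adhesion kinase, which alpha and gamma protocadherins bind and inhibit) was at 162 CPM with WT and 131 CPM with ZFmut (log2 0.30, SE 0.05, edgeR adjusted p = 0.000517), whereas its relative PTK2B was not called (log2 0.21, edgeR adjusted p = 0.201). ADAM10, the sheddase that cuts the extracellular part of gamma protocadherins, was at 166 against 129.7 CPM (log2 0.35, edgeR adjusted p = 0.00109). FYN and PRKCA, kinases linked to this pathway, had log2 differences of 0.26 and 0.26 (edgeR adjusted p = 0.0015 and 0.000976). Among genes called lower, NLGN2, a neuroligin of inhibitory synapses, was at 60.4 against 78.3 CPM (log2 -0.38, edgeR adjusted p = 0.000428). The non-clustered protocadherin PCDH1, downstream of the gamma cluster on chromosome 5, was at 3.94, 3.68 and 3.55 CPM in the WT libraries and 5.53, 5.67 and 6.87 CPM in the ZFmut libraries. It was lower with WT without overlap (log2 -0.73, SE 0.12, edgeR adjusted p = 0.000262), while PCDH12, further downstream, was not called (log2 0.23, edgeR adjusted p = 0.336).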
